A study of Mus musculus with 141 samples.

Results

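Collagens and laminins are the structural proteins of the extracellular matrix, and their genes were followed here through the DNA methylation of their ends and bodies in mouse glioma cells with and without an inhibitor of mutant IDH. The genes were every autosomal protein-coding gene whose symbol is Col, a number, a and a number, or begins with Lama, Lamb (1 to 3) or Lamc. The rule gave 53 genes, 42 for collagen chains and 11 for laminin chains, of 20661 autosomal protein-coding genes, and 2 X-linked genes with such symbols were left out. The cells were a mouse glioma line labelled IdhR132H, grown in 1 µM AG-881 or in vehicle (DMSO) over more than 2 weeks, so both arms carry the mutation. AG-881 (vorasidenib) inhibits mutant IDH enzymes, whose product blocks dioxygenases that remove methyl groups from DNA. Live single cells were sorted by calcein AM and TO-PRO-3 staining, and each gave a reduced representation bisulfite library made with the enzyme MspI, which samples CpG-dense sequence, together with a Smart-seq2 library. The transcriptomes were not analysed here, so neither the expression of these genes nor markers of the cell type were checked.

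A collagen molecule is a triple helix of alpha chains. Fibrillar collagens assemble into the fibrils of connective tissue, type IV collagens form the network of basement membranes, and other classes decorate fibrils, form filaments or span the cell membrane. Laminins are cross-shaped molecules of an alpha, a beta and a gamma chain that form the other network of basement membranes and bind integrins. In brain, the basement membrane of blood vessels and of the brain surface is the main site of both, while the tissue between the cells has little fibrillar collagen.

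A total of 67 AG-881 cells and 74 DMSO cells had data, in 4 library pools per arm (pools 1 to 4 AG-881, pools 5 to 8 DMSO) of 14 to 21 cells. All 24 cell barcodes were used in more than 1 pool. A cell had a median of 88201 CpGs with AG-881 (23464 to 186290) and 66297 with DMSO (10287 to 161964). A call is 1 CpG in 1 cell, scored methylated or not, and a level is the percentage of calls that were methylated, taken at CpGs with calls from 5 or more cells per arm. The labels name no separate cultures, so each arm is 1 culture. No test was possible, and the 95% intervals below are exact binomial (Clopper-Pearson) intervals that cover counting error only. No pool held both arms, so an effect of a pool and one of the treatment cannot be told apart.

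An end is the sequence within 1 kb of either end of a gene, and a body is the rest of the gene. Ends or bodies with at least 50 calls and 10 cells in each arm were taken as measured. Of the 53 genes, 30 had a measured end or body, 19 a measured end, 26 a measured body and 15 both. The other 23 were Col1a2, Col3a1, Col5a2, Col11a1 and Col24a1 (fibrillar), Col4a4, Col10a1, Col6a1, Col6a4, Col6a5, Col9a1, Col9a2, Col9a3, Col12a1, Col14a1, Col20a1, Col17a1, Col28a1, Lama2, Lama3, Lama4, Lamb1 and Lamb3, and of these Lamb1 had no usable CpG. The side on which transcription starts was known for 38 of the 53 genes from the RefSeq promoter table (GRCm38.p6, the same sequence as mm10). For the other 15 genes the ends are given without a side.

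The promoters of 6 genes whose starts carry the results are printed below, from 250 bases before the listed start to 50 after it, 5′ to 3′ along the gene, from RefSeq GRCm38.p6. Capitals mark the CpGs measured in both arms. Col4a1 and Col4a2, the chains of the most abundant type IV collagen, are transcribed away from each other from starts 21 bp apart and share 1 promoter region, so their starts were measured as 1. Col5a3 encodes a minor fibrillar chain, Col8a2 a chain of the type VIII network collagen of corneal and vascular basement membranes, and Lama5 an alpha chain of vascular laminins. Col23a1 encodes a membrane-spanning collagen.
Col4a2 (chr8:11312555-11312854, plus strand): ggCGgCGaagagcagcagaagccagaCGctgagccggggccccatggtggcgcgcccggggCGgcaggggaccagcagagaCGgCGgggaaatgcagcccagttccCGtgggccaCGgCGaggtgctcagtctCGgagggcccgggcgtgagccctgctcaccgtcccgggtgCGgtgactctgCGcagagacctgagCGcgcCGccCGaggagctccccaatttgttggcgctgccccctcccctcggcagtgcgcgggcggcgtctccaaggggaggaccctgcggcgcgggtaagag
Col4a1 (chr8:11312777-11313076, minus strand): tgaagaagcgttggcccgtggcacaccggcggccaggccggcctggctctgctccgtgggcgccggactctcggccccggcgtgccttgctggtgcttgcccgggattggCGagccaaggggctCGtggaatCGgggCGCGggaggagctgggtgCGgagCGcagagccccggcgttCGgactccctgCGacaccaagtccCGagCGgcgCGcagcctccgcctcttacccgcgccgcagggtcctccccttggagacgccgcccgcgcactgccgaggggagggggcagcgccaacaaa
Col5a3 (chr9:20815018-20815317, minus strand): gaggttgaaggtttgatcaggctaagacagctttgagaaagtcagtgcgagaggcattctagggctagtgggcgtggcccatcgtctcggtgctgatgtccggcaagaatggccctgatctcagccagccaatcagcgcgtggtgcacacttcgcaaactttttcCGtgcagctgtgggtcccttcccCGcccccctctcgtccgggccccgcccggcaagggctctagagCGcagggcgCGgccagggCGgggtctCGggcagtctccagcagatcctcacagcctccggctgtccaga
Col8a2 (chr4:126286544-126286843, plus strand): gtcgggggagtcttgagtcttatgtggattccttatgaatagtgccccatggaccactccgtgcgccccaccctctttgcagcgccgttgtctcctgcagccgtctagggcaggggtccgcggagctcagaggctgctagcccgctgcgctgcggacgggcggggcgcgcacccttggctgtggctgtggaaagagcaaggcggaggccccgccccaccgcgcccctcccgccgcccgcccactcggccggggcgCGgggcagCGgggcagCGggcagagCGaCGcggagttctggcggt
Lama5 (chr2:180225810-180226109, minus strand): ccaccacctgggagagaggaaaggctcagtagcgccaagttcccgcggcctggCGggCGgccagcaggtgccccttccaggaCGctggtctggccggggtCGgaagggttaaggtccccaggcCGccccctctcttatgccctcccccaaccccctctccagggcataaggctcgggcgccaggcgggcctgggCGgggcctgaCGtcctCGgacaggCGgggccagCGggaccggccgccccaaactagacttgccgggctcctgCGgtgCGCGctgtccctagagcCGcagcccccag
Col23a1 (chr11:51289670-51289969, plus strand): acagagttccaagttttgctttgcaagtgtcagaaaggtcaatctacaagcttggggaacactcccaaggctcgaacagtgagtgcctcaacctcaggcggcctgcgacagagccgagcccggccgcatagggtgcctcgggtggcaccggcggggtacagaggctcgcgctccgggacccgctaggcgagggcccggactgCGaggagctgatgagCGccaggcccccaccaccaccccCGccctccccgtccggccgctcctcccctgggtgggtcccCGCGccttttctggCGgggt

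The marked CpGs had very different levels from gene to gene. In the Col4a2 promoter the 15 CpGs together were 29.2% methylated with AG-881 (22.4 to 36.7%, 168 calls) and 41.4% with DMSO (33.5 to 49.7%, 152 calls), and 12 of the 15 were lower with AG-881. In the Col4a1 promoter the 12 CpGs were 30.3% against 35%, with 6 CpGs lower and 6 higher. The 5 CpGs nearest to the Col4a1 start, 40 to 73 bp before it, had levels of 0 to 50% with AG-881 and 28.6 to 85.7% with DMSO, each lower with AG-881 on 6 to 8 calls per arm. Such close neighbours are not independent readings. The 6 higher CpGs all lay further out, 90 to 140 bp before the start. The 6 marked CpGs of Col5a3 were 33.3% methylated with AG-881 and 43.4% with DMSO. At Col8a2 the 5 CpGs just after the start were 54.5% against 63.3%. The 14 CpGs of Lama5 were 5.98% against 12.3%, and 5 of them had the same level in both arms. At Col23a1 none of 63 AG-881 calls was methylated, which allows up to 4.76%, against 7.69% of 52 DMSO calls.

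As a set, the starts of these genes were far more methylated than gene starts in general and were lower with AG-881. Over 229 CpGs the level was 22.2% with AG-881 (20.5 to 24%, 2161 calls) and 30.6% with DMSO (28.5 to 32.7%, 1906 calls), a difference of -8.38 percentage points (-11.1 to -5.63). The starts of all genes were at 5.32% and 6.05%. In proportion, the member starts were lower by 27.4% of their DMSO level and the starts of all genes by 12.2%. By pool, the member starts stood at 16.7%, 20.6%, 28.6% and 22.7% with AG-881 and at 33%, 30.6%, 31.9% and 27.2% with DMSO. The arms overlapped in 1 place, where AG-881 pool 3 was above DMSO pool 8. Pool 3 was also the highest AG-881 pool (6.22%), and pool 1 the lowest (4.69%), over the starts of all genes, whose DMSO pools were at 5.67 to 6.45%. The part of these pool differences in the result was not tested.

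Of 13 measured member starts (12 distinct, since Col4a1 and Col4a2 share theirs), 13 were lower with AG-881, against 50.1% of the 7115 measured starts of all genes. These 13 include the outer end of Col27a1, whose listed start lies 1403 bp further inside. Without the ends whose listed start is over 1 kb inside the gene, 12 of 12 starts were lower and the pooled difference was -7.75 points. Over all ends, 18 of 20 were lower, 1 was equal and 1 was higher, against 50.6% lower among the 9408 measured ends of all genes. Most ends of other genes were almost unmethylated: the median DMSO level was 0.885% over all ends and 33.6% over the member ends. Among ends with a mean level of 20 to 60%, 13 of 13 member ends were lower against 70.8% of 936 ends of all genes. At that level the median difference was -8.23 points for member starts and -4.11 points for the starts of all genes. Member ends lower by at least 10 points numbered 4 of 20 against 3.49% of all ends, and none was higher by that much against 0.967%. Within the 20 to 60% band these 4 were 4 of 13, against 22.6% of all such ends.

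**Figure D1:**
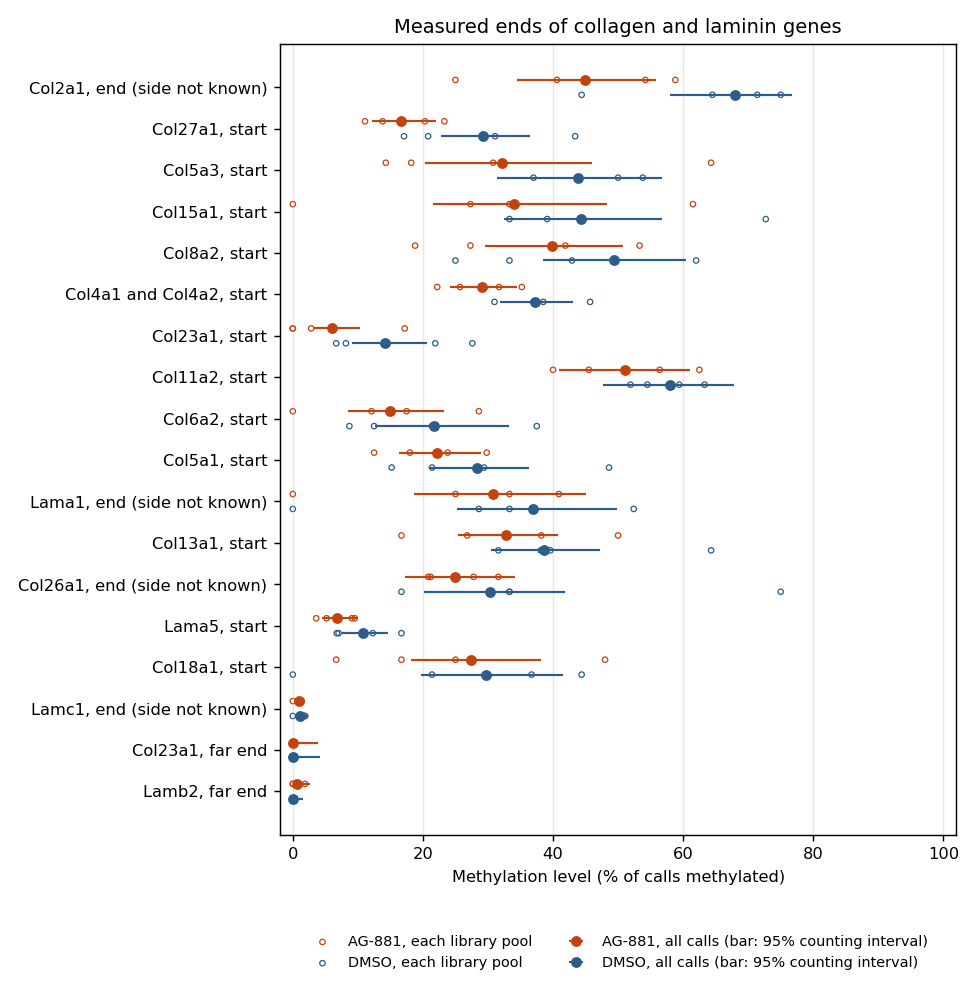
Methylation level (x axis, % of calls) of 18 of the 19 distinct measured ends of collagen and laminin genes, sorted by the difference between arms. Filled points are all calls of an arm with 95% counting intervals and open points the 4 library pools. The AG-881 point lies left of the DMSO point in all but the last 2 ends, Col23a1 far end and Lamb2 far end, and the pools of the arms overlap at every end.

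The same starts were read by distance from the outer end of the gene. From 0 to 249 bp inside, member starts were at 21.1% with AG-881 and 29.3% with DMSO and so differed by -8.19 points (-12.5 to -3.87). From 250 to 499 bp the levels were 18.8% and 28.4%, and from 500 to 1000 bp 26.8% and 38.6%, a difference of -11.8 points (-18.6 to -4.98). In the 250 bp outside the gene the levels were 27.4% and 30%, a difference of -2.69 points whose interval (-8.4 to 3.01) includes 0. Between -500 and -251 bp, outside the gene, 6 CpGs of 2 windows were at 28.9% (45 calls) and 51.9% (54 calls), a difference of -23 points (-41.6 to -2.12). Further out a single CpG, with 11 and 5 calls, was at 72.7% and 100%. These intervals overlap one another, so a different size of difference inside and outside was not shown. From 250 bp outside to 1000 bp inside, the starts of all genes were at 3.52 to 7.25% with AG-881 and at 4.14 to 8.33% with DMSO.

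**Figure D2:**
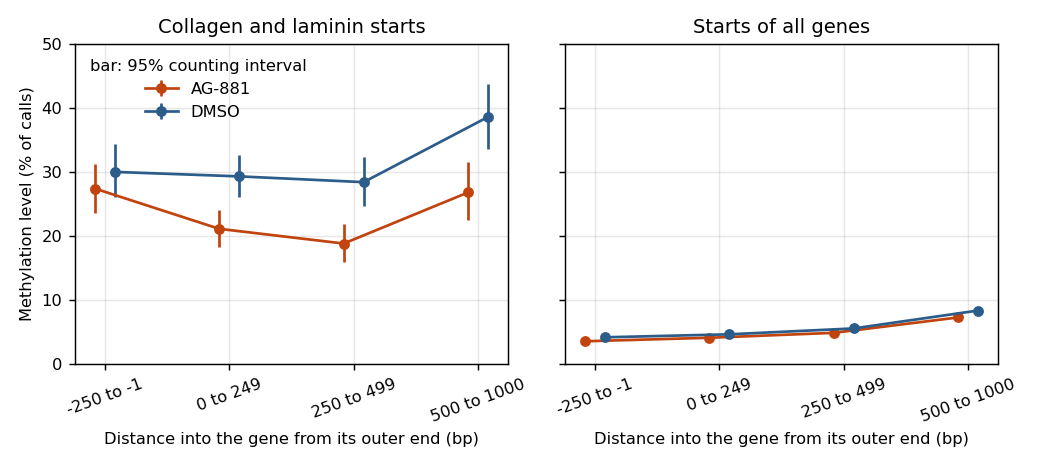
Methylation level (y axis, % of calls) by distance into the gene from its outer end at the start side, for collagen and laminin genes (left) and all genes (right), with 95% counting intervals. The bins drawn run from 250 bp outside to 1000 bp inside the gene, and in each of them the AG-881 line lies under the DMSO line.

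CpGs at the member ends stood less densely than those at all ends. Of the member end CpGs, 71% had at least 10 CpG positions of the table within 100 bp and 13.8% had at least 20, against 77% and 31% of the CpGs at all ends. Member starts with 10 to 19 such positions were at 24.1% with AG-881 and 31.5% with DMSO, where the starts of all genes were at 4.64% and 5.35%. With 20 or more positions, member starts were at 15.7% and 25.4% and those of all genes at 3.1% and 3.68%. In the promoter table, GGGCGG on either strand was found in 57.1% of 42 member promoters and 47% of 20084 promoters of all genes. CCAAT stood in 31% and 38.1%, and TATAAA in 11.9% and 12.7%. The median number of CG was 11 in member promoters and 14 in all promoters.

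Fibrillar collagens had 5 measured ends, each with a mean level of 20 to 60%, and all 5 were lower with AG-881, 3 of them by at least 10 points. Among all ends of that level, 70.8% were lower and 22.6% were lower by at least 10 points. The largest difference among all member ends was at the end of Col2a1 (chr15:98003724-98005724), the chain of cartilage collagen, whose side is not known here. Its level was 44.9% with AG-881 (34.4 to 55.9%, 89 calls of 26 cells) and 68% with DMSO (58 to 76.8%, 103 calls of 28 cells), a difference of -23 points (-36.8 to -8.27). The pools were at 58.8%, 25%, 54.2% and 40.6% with AG-881 and at 71.4%, 75%, 44.4% and 64.5% with DMSO. The lowest DMSO pool, with 9 calls, lay below 2 AG-881 pools, and without single pools the difference was between -31.6 and -19.1 points. For single ends and bodies, here and below, values without a pool also rest on fewer CpGs, since a CpG still needs 5 cells per arm. They do not separate the pool from the CpGs lost with it.

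Col27a1, a fibrillar collagen of cartilage, was second. At its outer end (chr4:63213009-63215009) the level was 16.6% with AG-881 (12.1 to 22%, 235 calls) and 29.3% with DMSO (22.8 to 36.5%, 181 calls), a difference of -12.7 points (-21.2 to -4.23). AG-881 pools were at 23.3%, 11.1%, 20.3% and 13.8%, and DMSO pools at 31.1%, 17.1%, 20.8% and 43.4%. DMSO pool 8 was the highest, and without it the difference was -6.31 points. RefSeq lists the start of Col27a1 1403 bp inside this end, within what the rule counts as body. The 4 CpGs measured in the promoter sequence there were unmethylated in all 65 AG-881 calls and all 42 DMSO calls, which allow up to 4.62% and 7.14%. The window of 1 kb either side of that listed start was at 9.39% (6.59 to 12.9%) and 13.9% (10.4 to 18%).

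The start of Col5a3 (chr9:20814117-20816117) was at 32.1% with AG-881 (20.3 to 46%, 56 calls) and 43.8% with DMSO (31.4 to 56.7%, 64 calls), a difference of -11.6 points (-29.2 to 6.95). Its AG-881 pools ranged from 14.3% to 64.3% and its DMSO pools from 37% to 53.8%, and without AG-881 pool 1 the difference turned to 3.59 points. Col11a2, a chain of cartilage fibrils, was the most methylated fibrillar start, at 51% (40.9 to 61%, 102 calls) and 58% (47.7 to 67.8%, 100 calls). Its difference of -7.02 points (-21.1 to 7.35) turned to 2.49 points without AG-881 pool 1, and the window also holds an end of the neighbouring gene Rxrb. On the same CpGs, Col5a3 and Col11a2 would both stay lower without pool 1, by a smaller difference that was not computed. Col5a1, the main chain of type V collagen, which regulates fibril diameter, was at 22.1% and 28.3%. Within the printed stretch of its promoter 8 CpGs were nearly unmethylated, at 5.97% and 3.64%. At Col1a1, Col1a2 and Col3a1, the chains of the most abundant fibrils, no end was measured.

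The shared start of Col4a1 and Col4a2 (chr8:11311889-11313889 for Col4a1) was at 29.1% with AG-881 (24.1 to 34.4%, 320 calls of 35 cells) and 37.3% with DMSO (31.8 to 43.1%, 295 calls of 36 cells), a difference of -8.23 points (-15.8 to -0.556). AG-881 pools were at 22.2%, 35.2%, 31.7% and 25.7% and DMSO pools at 38.5%, 45.7%, 37% and 31%. The DMSO pools were the higher ones with a partial overlap. Leaving out AG-881 pool 1 gave -1.96 points and leaving out pool 4 gave -4.75 points. On CpGs with calls from 10 or more cells per arm it was 1.21 points. Single cells were mostly mixed here: of cells with at least 3 calls, 28 AG-881 and 28 DMSO cells had both methylated and unmethylated calls, 6 and 8 had none methylated, and none had all methylated.

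Col8a2, the short-chain network collagen printed above, was at 39.8% with AG-881 (29.5 to 50.8%, 88 calls of 12 cells) and 49.4% with DMSO (38.5 to 60.4%, 87 calls of 12 cells) at its start. The difference of -9.65 points had an interval of -24.7 to 5.83. Leaving out AG-881 pool 3 widened it to -19.3 points, and leaving out DMSO pool 6 to -21 points. The Col8a2 pools were at 27.3%, 18.8%, 53.3% and 41.9% with AG-881 and at 62%, 25%, 42.9% and 33.3% with DMSO, so the arms overlapped widely. DMSO pool 5, the highest, supplied 50 of the 87 DMSO calls. Without it, or without AG-881 pool 4, too few calls were left for a value. The other DMSO pools had 20, 14 and 3 calls, and together they lay under the AG-881 level of 39.8%. On the same CpGs the sign would therefore turn without pool 5, by a size not computed. Col6a2, a chain of the type VI filaments around cells, was at 14.9% and 21.7%, and its difference of -6.89 points turned to 1.32 points without DMSO pool 8.

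Among the multiplexins, collagens of basement membrane zones whose ends release antiangiogenic fragments, both measured starts were lower. Of all starts with a mean level of 20 to 60%, 70.7% were lower. Col15a1 (chr4:47206655-47208655) was at 34% (21.5 to 48.3%, 53 calls of 13 cells) and 44.3% (32.4 to 56.7%, 70 calls of 16 cells), a difference of -10.3 points (-27.9 to 8.27). Its AG-881 pools ran from 0 to 61.5% on 6 to 22 calls and its DMSO pools from 33.3% to 72.7%. Leaving out AG-881 pool 3 gave -17.5 points, and leaving out AG-881 pool 1 or DMSO pool 5 gave -6.62 and -6.4 points. Col18a1, the source of endostatin, was at 27.4% and 29.7%, a difference of -2.35 points that was between -8.86 and 5.68 points without single pools.

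Membrane-spanning collagens gave the start of Col23a1 (chr11:51288679-51290679), at 6.09% with AG-881 (3.19 to 10.4%, 197 calls) and 14.2% with DMSO (9.11 to 20.7%, 155 calls), a difference of -8.1 points (-15.2 to -1.44). Its AG-881 pools were at 2.82%, 0, 0 and 17.2%, and its DMSO pools at 6.67%, 27.6%, 21.9% and 8.16%. AG-881 pool 4 was the only one of that arm above a DMSO pool, and without it the difference was -12.8 points. The far end of Col23a1, in a window that also holds an end of Phykpl, had 0 methylated of 92 and of 88 calls. Col13a1 was at 32.7% and 38.6% at its start. Col26a1, grouped with the other collagens, was at 25% and 30.3% at 1 end.

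Laminin ends as a set had the same level in both arms. All laminin ends together were at 10.4% with AG-881 (9.04 to 12%, 1743 calls) and 10.4% with DMSO (8.88 to 12%, 1514 calls), a difference of 0.0719 points (-2.09 to 2.21), whereas all collagen ends were at 26.3% (24.5 to 28.2%) and 35.2% (33.1 to 37.4%), a difference of -8.87 points (-11.7 to -6). The intervals of these differences do not overlap, which again covers counting error only. Collagen ends by pool were at 20.6%, 25.3%, 32.7% and 26.7% with AG-881 and at 38.7%, 38.2%, 35.2% and 30.2% with DMSO. Laminin ends were at 9.84%, 10.4%, 10% and 11.3% and at 7%, 13.2%, 10.6% and 11.7%, with the DMSO pools on both sides of the AG-881 pools. One end supplied 45.7% of the AG-881 calls of laminin ends, that of Lamc1 (chr1:153331786-153333786), the gamma chain of most laminins. It had 77 CpGs and was close to unmethylated, at 0.879% of 796 calls and 1.08% of 739 calls.

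The start of Lama5 was at 6.81% (4.49 to 9.81%, 382 calls) and 10.8% (7.62 to 14.7%, 325 calls), and its difference of -3.96 points became 0.637 points on CpGs with calls from 10 or more cells per arm. Lama1, the alpha chain of early embryonic basement membranes, was at 30.8% and 36.9% at an end with 52 and 65 calls. The far end of Lamb2, the beta chain of synaptic and vascular basement membranes, was the only end above its DMSO level, at 0.717% (0.0869 to 2.57%, 279 calls) and 0 of 226 calls, which allows up to 1.33%. That window also holds an end of Usp19.

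**Figure D3:**
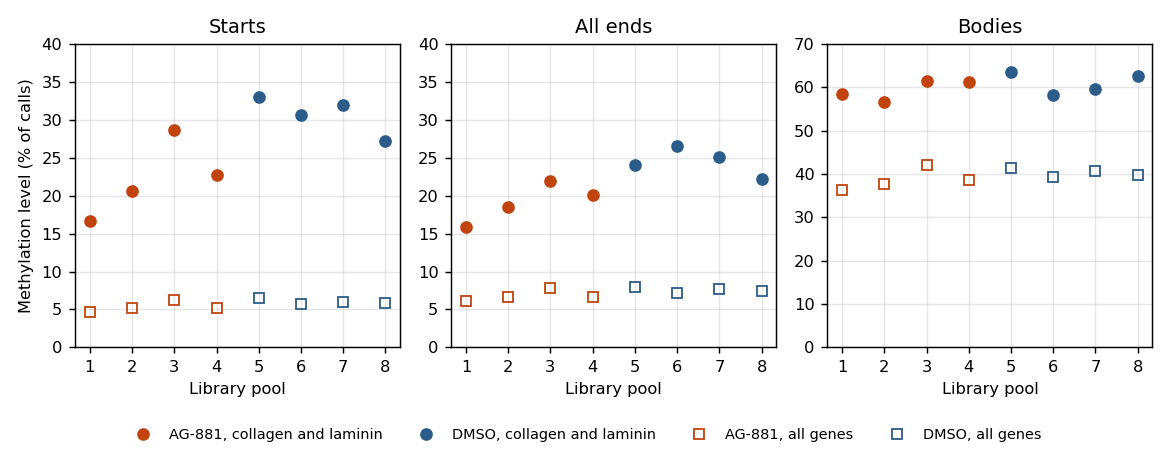
Methylation level (y axis, % of calls) in each of the 8 library pools for starts, all ends and bodies, with filled circles for collagen and laminin genes and open squares for all genes. At the starts the AG-881 pools of the collagen and laminin genes sit between 16.7% and 28.6% and the DMSO pools between 27.2% and 33%, while in the bodies the pools of the arms overlap.

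Taking starts, far ends and ends of unknown side together, the member ends were at 19.2% with AG-881 (18 to 20.5%, 3889 calls) and 24.3% with DMSO (22.9 to 25.7%, 3443 calls), a difference of -5.07 points (-6.99 to -3.16), against -0.811 points for all ends. The far ends were at 6.05% and 5.62%, and the ends of unknown side at 18.6% and 20.2%. On CpGs with calls from 10 or more cells per arm, 71 of the 407, the difference was -1.22 points at all ends, and it was -3.53 points at the starts, on 31 CpGs. Leaving out AG-881 pool 1 or pool 4 gave -3.03 and -2.66 points at all ends and leaving out pool 1 gave -4.75 points at the starts. Those values rest also on fewer CpGs, since a CpG needs 5 cells in each arm. With the CpGs held the same, the difference without any 1 pool was -5.97 to -4.09 points at all ends and -10.3 to -6.77 points at the starts. Without single pools, 7 to 10 of the 8 to 10 starts that still had enough calls and cells were lower. A start that fell under 50 calls or 10 cells left that count, although its value could turn. On the CpGs then left, the starts of Col5a3, Col11a2, Col18a1 and Col6a2 were each higher with AG-881 without at least 1 of the pools. Starts outside this list can turn too. On the same CpGs, that of Col5a1 would turn without DMSO pool 6 (48.6% of 37 calls), and that of Col8a2 without DMSO pool 5. The count of 4 ends lower by at least 10 points was 7 with equal weight per pool, and 1 or 2 without AG-881 pools 1, 2 or 4 or DMSO pools 5, 6 or 8.

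Single cells were mostly mixed at the ends of intermediate level. At the 12 distinct member ends with a mean of 20 to 60%, 152 of 207 pairs of a cell and an end with at least 3 calls were mixed with AG-881 (73.4%, 66.9 to 79.3%) and 149 of 205 with DMSO (72.7%, 66 to 78.7%). No methylated call was found in 48 and 44 pairs, and only methylated calls in 7 and 12. Pairs of the same cell or end are not independent. Over all member ends, cells had a mean level of 19.1% ± 8.91 (SD over 67 AG-881 cells) and 23.5% ± 12.5 (71 DMSO cells) as a description, with a range of 0 to 46.6% and 0 to 59.3%.

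Gene bodies were mostly methylated and showed a small difference in either direction. All member bodies were at 59.6% with AG-881 (58.2 to 61%, 4622 calls) and 61.3% with DMSO (59.8 to 62.7%, 4341 calls), a difference of -1.65 points (-3.69 to 0.395), and the bodies of all genes at 38.8% and 40.4%, a difference of -1.6 points. Pools were at 58.4%, 56.6%, 61.5% and 61.2% and at 63.6%, 58.2%, 59.7% and 62.5%. The bodies of these genes held fewer dense CpGs, 9.56% with at least 10 positions within 100 bp, against 43.9% in the bodies of all genes. Where density was 1 to 4 positions, members were at 66.2% and 68.4% and all genes at 70.1% and 71%. Of 26 measured bodies, 17 were lower and 9 higher, against 56.8% lower among the 4189 measured bodies of all genes. By at least 10 points, 2 were lower against 6.4%, and 1 was higher against 3.34%, so the counts were near the background. Without AG-881 pools 2 or 4 or DMSO pools 5 or 8, 1 body was lower by that much, and the number higher was between 0 and 2 without single pools.

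Laminin bodies together were at 71.3% with AG-881 (67.3 to 75%, 554 calls) and 78.3% with DMSO (74.4 to 81.8%, 506 calls), a difference of -6.96 points (-12.3 to -1.6). Their pools were at 63.7%, 70.9%, 75.7% and 73.1% and at 81.9%, 80%, 76.8% and 74.6%, and the arms overlapped only between AG-881 pool 3 and DMSO pool 8. Lama1 had the largest decrease, at 72.3% (63.3 to 80.1%, 119 calls) and 83.5% (76.2 to 89.2%, 139 calls), a difference of -11.2 points (-21.8 to -0.534). Its AG-881 pools were at 70.6%, 60.6%, 85.7% and 66.7% and its DMSO pools at 80%, 84%, 86.5% and 83%, with AG-881 pool 3 among the DMSO pools. Leaving out AG-881 pool 2 gave -4.62 points and leaving out pool 4 gave -6.79 points. The body of Lama5 was at 69.5% and 76.4% and that of Lamc3 at 61.7% and 62.3%. Pooled levels weigh each body by its calls. The body of Lamb3, with too few calls to be measured, was at 2.86% of 35 AG-881 calls and 4.17% of 24 DMSO calls. The part of such unequal calls in the laminin difference was not tested. Lamc1, near 0 at its end, had the most methylated body, at 96.7% (90.6 to 99.3%, 90 calls) and 94.3% (87.2 to 98.1%, 88 calls). Its difference of 2.35 points was -1.69 points without DMSO pool 8.

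Col4a1 and Col4a2 were lower at their shared start and higher in the body. The Col4a1 body was at 75.9% with AG-881 (70.5 to 80.8%, 282 calls) and 67.9% with DMSO (62 to 73.3%, 280 calls), a difference of 8.03 points (0.349 to 15.6). Its AG-881 pools were at 84.8%, 71.2%, 78% and 71.4%, and its DMSO pools at 71.8%, 62.7%, 70% and 65.7%. The lowest AG-881 pools lay just under the highest DMSO pool. Leaving out AG-881 pool 1 gave 4.02 points, and on CpGs with calls from 10 or more cells per arm it was -4.63 points. The body of Col4a2 was at 75% and 68.9%, a difference of 6.05 points (-2.16 to 14.3), and that of Col4a3 at 73.1% and 79.7%. Whether start and body differ in direction was not tested.

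Among the other bodies, Col23a1 was the only one higher by at least 10 points, at 67.1% (59.4 to 74.1%, 170 calls) and 56.6% (47.9 to 65.1%, 136 calls). That difference of 10.4 points (-0.945 to 21.7) was -1.43 points without AG-881 pool 4, on the CpGs then left. Col18a1 was at 81.8% (75.1 to 87.4%) and 76.7% (69.8 to 82.7%). Col8a2 was lower in the body as at the start, at 36% (27.1 to 45.7%, 111 calls) and 46.3% (35.3 to 57.7%, 82 calls), a difference of -10.3 points (-24.7 to 4.4). Without single pools it was between -13 and -9.56 points, on the CpGs then left. DMSO pool 8 was at 65% of 20 calls, while the other DMSO pools were at 27.8 to 45.8% and the AG-881 pools at 25 to 40%. On the same CpGs the difference without pool 8 would be smaller, since that pool lay far above the DMSO level. Its size was not computed. Col7a1, the anchoring fibril of skin, was at 62.1% and 70.2%, and the difference of -8.11 points was 5.12 points without DMSO pool 5 and 2.38 points without pool 7. Col2a1 was at 42.5% and 50.5%, and without DMSO pool 5 the difference of -7.91 points was 11.1 points. These turns came on fewer CpGs. Pool 7 at Col7a1 (47.6%) and pool 5 at Col2a1 (42.9%) lay below the DMSO level of the body. On the same CpGs, leaving out either could not have turned the sign.

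Of the 6 type VI genes, 3 had a measured body, at 77.8% or more in both arms. Col6a3 was at 86.7% (77.9 to 92.9%, 90 calls) and 94.4% (86.2 to 98.4%, 71 calls), Col6a2 at 87.1% (78 to 93.4%) and 86.2% (76.7 to 92.9%), and Col6a6 at 77.8% (67.8 to 85.9%) and 85.9% (76.6 to 92.5%). Of the fibril-associated collagens, which coat fibrils, Col16a1 was at 84.3% and 79.7%, Col22a1 at 44.2% and 50%, and Col19a1 at 41.6% (35.5 to 47.9%, 257 calls) and 46.7% (40.4 to 53%, 255 calls). The lowest body was that of Col1a1, the alpha chain of type I collagen, at 15.7% (7.02 to 28.6%, 51 calls) and 17.5% (8.75 to 29.9%, 57 calls). Col27a1 followed at 32.7% (29 to 36.5%, 624 calls) and 36.3% (32.5 to 40.4%, 597 calls), with its listed start inside that body. Intervals of the 2 arms overlapped at each of these bodies. Over the 26 bodies, 2 had an interval of the difference that excluded 0, Lama1 and Col4a1. The bodies of Col5a1, Col13a1, Col25a1, Col26a1, Col11a2 and Col8a1 were at 43.7 to 72.7% with DMSO and differed by -5.63 to 4.87 points.

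**Figure D4:**
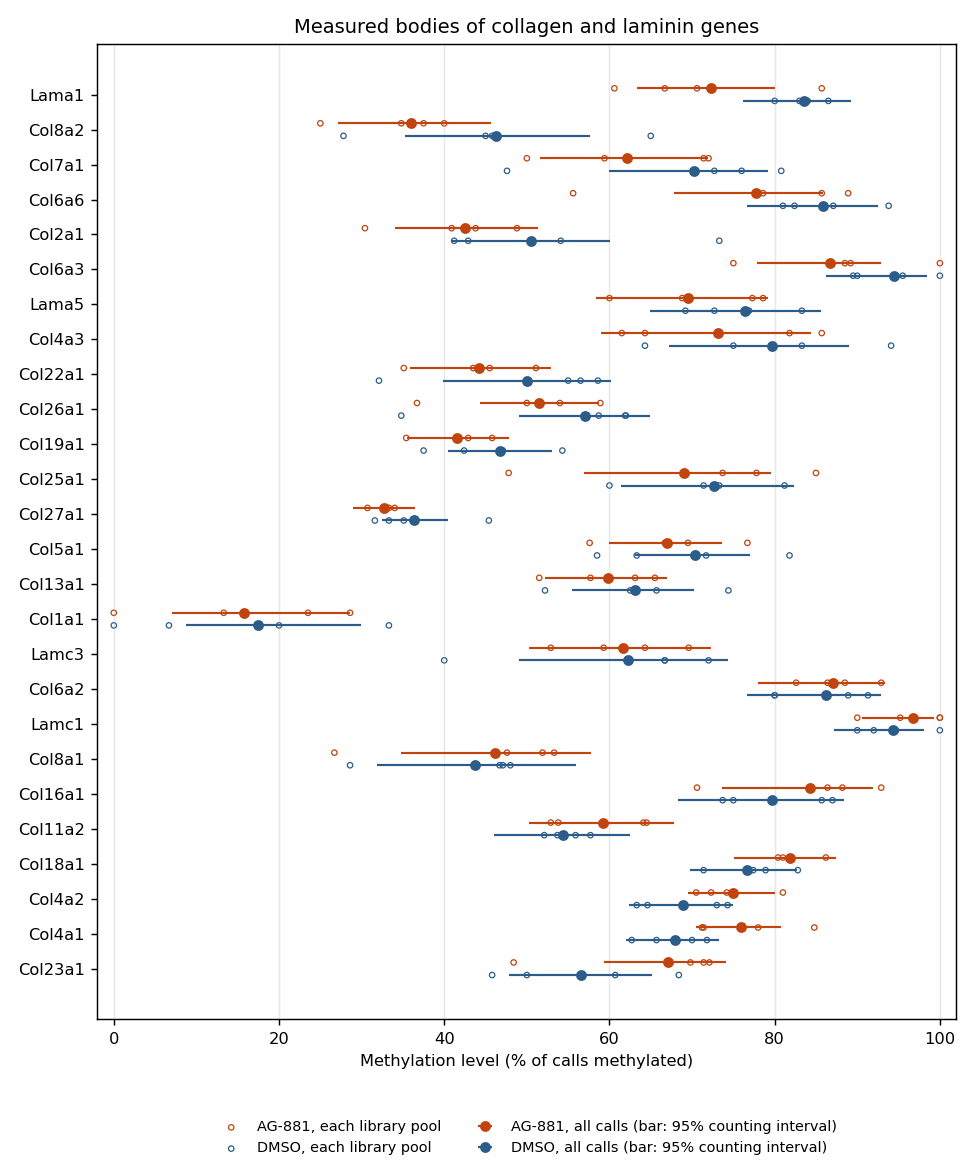
Methylation level (x axis, % of calls) of the 26 measured bodies, sorted by the difference between arms from Lama1 (-11.2 points) to Col23a1 (10.4 points). Filled points are all calls of an arm with 95% counting intervals, open points the 4 library pools. Levels reach from 15.7% at Col1a1 to 96.7% at Lamc1, and the pools of the arms overlap in all of them.

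Other genes of the matrix were read for comparison, chosen by role: 12 receptors of collagens and laminins, 6 basement membrane partners, 18 genes of chain processing and cross-linking and 3 matrix proteases. Of these 39 genes, 21 had a measured end. Their ends had a median level of 3.09% with AG-881 and 2.47% with DMSO. Of these ends, 11 were lower and 10 higher, against 50.6% lower among all ends. None was lower by at least 10 points against 3.49% of all ends, and 2 were higher by that much against 0.967%. Those 2 were Adamts14, a procollagen protease, at 13.1% of 221 calls and 1.48% of 135 calls, and Adamts3, a related protease, at 48.3% of 116 calls and 36.2% of 69 calls. The integrin gene Itgb1, which encodes the beta chain shared by the main laminin and collagen receptors, was at 0.15% and 0.132%. Of 12 measured bodies, 9 were lower and 3 higher, against 56.8% lower among all bodies. By at least 10 points, 2 were lower against 6.4%, and 1 was higher against 3.34%. The lower ones were Ntn4, a netrin of basement membranes, at 59.5% and 78.6%, and Ddr1, a collagen receptor kinase, at 24.9% and 40%. The higher one was Itga2, the alpha chain of a collagen-binding integrin, at 63.6% and 50.9%.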

How the data were processed

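The members and the lists of other matrix genes were chosen with earlier results of these data known. Cytosine positions follow mm10, per the submitters' processing notes, while read alignment and methylation calling are, as to tools and minimum reads, not given in the sources used here. In the deposited table there is a methylated fraction per position and cell (0, 0.5 or 1) for 1416034 positions, with no read counts, so read depth is unknown and precision is set by the number of calls. Since column names hold arm, pool and barcode without a well, columns were assigned to arms only.

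Adjacent positions were merged as the 2 strands of a CpG, a call above 50% was methylated, and ties (0.647% of merged calls) were left out. Of 1283428 autosomal CpGs, 390944 had calls from 5 or more cells per arm and were used. Gene ends came from RefSeq GRCm38.p6 and the side of the start from its promoter table. Where the table covers a position, 98.5% of the positions fell on a CG. Calls were pooled over cells with Python 3.11.15 and scipy 1.17.1, after the counting was tested on simulated data. Intervals of a difference combine the Clopper-Pearson intervals of both arms. Calls of 1 cell go together, which makes these intervals too narrow for a spread over cells. With no methylated call, the limit is 3 calls of the total. No p-value was computed. A CpG read from a window shared by 2 genes counts once in pooled levels.

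Values are given in full for the 6 largest decreases and 4 largest increases among measured ends and among bodies, the 6 highest ends, and the 4 lowest and 4 highest bodies (1 end was higher at all), and for other members by class. An end that this rule names is not reported here. Alternatives were the number of cells per CpG, ties, strands, weights, the window size, ends of other genes inside bodies, and each pool left out.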

Additional observations from a re-analysis of the deposited data

How the results depend on the processing

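The pooled differences at ends and starts were negative in every alternative run. On CpGs with calls from 10 or more cells per arm they shrank to -1.22 and -3.53 points, where few CpGs are left. Without each pool in turn they ranged from -5.45 to -2.66 points at ends and from -9.96 to -4.75 points at starts, and, with the CpGs held the same, from -5.97 to -4.09 and from -10.3 to -6.77 points. Bodies ranged from -3.37 to 0.00289 points without single pools. All measured starts were lower in the full set (13 of 13), against 7 to 10 of 8 to 10 without single pools, 9 to 11 of 10 to 12 on the same CpGs, and 1 of 4 on CpGs called in 10 or more cells. The number of ends lower by at least 10 points was 1 of 7 on CpGs called in 10 or more cells, 7 with equal weight per pool, 2 with ties counted at 0.5, 2 with strands kept apart, and 1 to 3 without single pools. For bodies, the number lower by that much was 1 on CpGs called in 2 or more cells, 0 of 5 at 10 cells, 1 with strands kept apart and 1 to 3 without single pools, and the number higher was 0 at 2 cells, 0 at 10 cells, 0 with equal weight per pool and 0 to 2 without single pools. The cause of these shifts was not tested beyond the fewer CpGs that a stricter minimum leaves. Leaving out ends whose listed start is over 1 kb inside the gene gave -7.75 points and 12 of 12 at starts. Alternatives for the starts and those with the CpGs held the same were added after the data were seen. Of 34 named ends and bodies, 15 had the same sign in every alternative run, where leaving out a pool also changed the CpGs. The Col8a2 start is 1 of these 15, with no value without AG-881 pool 4 or without DMSO pool 5. On the same CpGs its sign would turn without DMSO pool 5. Among the named ends and bodies whose interval excluded 0, the shared start of Col4a1 and Col4a2 turned to 1.21 points and the Col4a1 body to -4.63 points on CpGs called in 10 or more cells. An alternative with under 20 calls in an arm gave no value for a single end or body. No paired analysis was possible because the labels pair no cells or pools across the arms.

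With 1 culture per arm, none of these differences can be told apart from a difference between 2 cultures or 2 sets of pools. Most measured ends had too few calls to show differences of a few points, and CpG-poor sequence was hardly sampled.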
